A study of Mus musculus with 4 samples.

Results

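The transcripts described here include those of the NF-kB subunit genes Nfkb1, Nfkb2, Rela and Relb. The others are of the NF-kB inhibitor genes Nfkbia, Nfkbib and Tnfaip3, the NF-kB regulator gene Nfkbiz, and the secreted-factor genes Cxcl10 and Lif. Together they are 10 of the 53465 gene rows counted, each found through 1 Ensembl identifier. All were selected on the counts of these libraries: the difference between EM-plasma and control libraries was known when they were chosen by name. The study sequenced poly(A) RNA of B16 cells, a mouse melanoma line, in 2 libraries made 4 h into treatment with EM-plasma, which the labels describe as plasma treated with exosome-mimetic nanovesicles, and in 2 libraries labelled only as control. The labels do not state the kind of plasma, what the controls received, when these were collected, or whether the 2 libraries of a group came from separate cultures. P-values therefore measure the spread between these libraries, which may be technical.

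NF-kB is a family of dimeric transcription factors that are held in the cytoplasm by inhibitor (IkB) proteins. Signals from cytokine or pattern receptors activate the IkB kinases, the inhibitors are degraded or the precursor proteins p105 and p100 are cut, and the freed dimers enter the nucleus. Because this step acts on proteins, the abundance of the subunit transcripts is not a measure of NF-kB activity. NF-kB also induces its own inhibitors Nfkbia and Tnfaip3 and the subunit genes Nfkb2 and Relb, in a feedback known from many cell types. CXCL10 is a chemokine that draws CXCR3-bearing T cells and NK cells and is induced by interferons together with NF-kB. LIF is a cytokine of the interleukin-6 family that signals through the LIF receptor and gp130 to STAT3.

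The stretches before the start sites of Cxcl10, Lif and Nfkbia are shown because Cxcl10 and Lif had the largest fold changes of the 10 transcripts, while Nfkbia is a well-known feedback target of NF-kB. They come from RefSeq on GRCm38.p6, read 5′ to 3′ along the strand of the gene, without any base inside the annotated gene. Capitals mark matches to the NF-kB consensus, to the AP-1 consensus (TGACTCA or TGAGTCA) and to the core of the interferon-stimulated response element (GAAANNGAAA), each searched on both strands. The windows lie at chr5:92348890-92349139 on the minus strand for Cxcl10, at chr11:4257318-4257556 on the plus strand for Lif and at chr12:55492648-55492897 on the minus strand for Nfkbia.
Cxcl10: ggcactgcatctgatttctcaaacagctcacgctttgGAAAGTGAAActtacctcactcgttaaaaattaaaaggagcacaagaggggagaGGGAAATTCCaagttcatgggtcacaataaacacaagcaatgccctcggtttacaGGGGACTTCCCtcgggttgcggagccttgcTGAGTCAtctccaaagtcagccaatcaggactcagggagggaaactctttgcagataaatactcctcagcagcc
Lif: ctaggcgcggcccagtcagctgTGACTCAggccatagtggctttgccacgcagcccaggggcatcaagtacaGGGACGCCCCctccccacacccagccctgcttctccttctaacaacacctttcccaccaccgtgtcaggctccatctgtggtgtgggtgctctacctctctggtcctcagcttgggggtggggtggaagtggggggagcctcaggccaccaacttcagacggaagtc
Nfkbia: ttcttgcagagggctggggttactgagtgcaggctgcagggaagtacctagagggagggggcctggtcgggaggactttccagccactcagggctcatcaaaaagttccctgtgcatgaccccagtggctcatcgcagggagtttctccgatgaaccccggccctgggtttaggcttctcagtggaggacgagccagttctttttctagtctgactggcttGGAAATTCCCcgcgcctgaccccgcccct

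The Cxcl10 stretch held an interferon element core at bases -213 to -204 from the start, an NF-kB match at -159 to -150, 2 overlapping NF-kB matches between -104 and -94 and an AP-1 match at -74 to -68. The Lif stretch held an AP-1 match at -228 to -222 and an NF-kB match at -178 to -169, and the Nfkbia stretch held an NF-kB match at -29 to -20. For Lif the positions count from the RefSeq start, and the last 11 bases before it are not printed, as they lie inside the annotated gene. Of the 10 genes, 7 had an entry among 32851 RefSeq windows of 250 bases: Cxcl10, Lif, Nfkb2, Rela, Nfkbia, Nfkbib and Tnfaip3. Some genes have more than 1 window, so these 7 genes had 10. An NF-kB match was present in 7 of the 10 windows, 3 of them of Nfkb2 and none of Rela or Nfkbib, and in 7.25% of all windows. The 3 Nfkb2 windows lie inside the annotated gene, and the last 2 of them overlap. Counted by gene, 5 of the 7 genes held an NF-kB match. An AP-1 match was present in 3 of the 10 (those of Cxcl10, Lif and Tnfaip3) and in 4.46% of all windows, and the interferon element core in 1 of the 10, that of Cxcl10, and in 2.98% of all windows. A match describes the letters only and does not show that a factor binds there.

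All 10 transcripts passed the filter on low counts and entered a fit over 13664 genes (edgeR's quasi-likelihood test). Levels below are CPM, the count of a gene scaled to the TMM-adjusted total of the tested genes' reads, as mean ± SD with n = 2 libraries per group. Differences are fitted log2 fold changes of EM-plasma over control with their standard error (SE). For the 10 transcripts these values are a description without a test, since the choice rested on the same libraries. At an adjusted p below 0.05, the threshold used throughout, Cxcl10 and Lif were 2 of the 10 past it, both higher in EM-plasma. This is not a test of these genes, and fewer of the 10 were past it whenever 1 library was left out. Of all tested genes 6.21% were past it, 3.34% higher and 2.88% lower, and nothing is read from that count.

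Cxcl10 and Lif had the 2 largest fold changes of the set and were higher in both EM-plasma libraries. Cxcl10 (ENSMUSG00000034855, chromosome 5, 92346638 to 92348889) had 2503 and 2536 reads in the EM-plasma libraries, against 2035 and 1925 in the control libraries. It stood at 54.1 ± 0.561 CPM in EM-plasma libraries and 41.0 ± 0.515 CPM in control libraries, a 1.32-fold level (log2 fold change 0.40, SE 0.061). The coefficient of variation was 1.04% within EM-plasma and 1.26% within control libraries, and the groups did not overlap. Of all tested genes, 10.9% had a larger absolute log2 fold change than Cxcl10.

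Lif (ENSMUSG00000034394, chromosome 11, 4257557 to 4272514) was rare. It had 48 and 43 reads in the EM-plasma libraries, against 19 and 9 in the control libraries, or 0.977 ± 0.0748 CPM against 0.288 ± 0.139 CPM. The log2 fold change was 1.75 (SE 0.42), the largest of the 10 transcripts, and 0.432% of tested genes had a larger absolute one. The groups did not overlap, but control 1 (0.386 CPM) and control 2 (0.190 CPM) differed widely, and the size of the fold rested on that pair: the log2 fold change was 2.34 without control 1 and 1.34 without control 2. Cxcl10 depended less on single libraries, with log2 fold changes from 0.39 to 0.41 when each library was left out in turn.

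**Figure D1:**
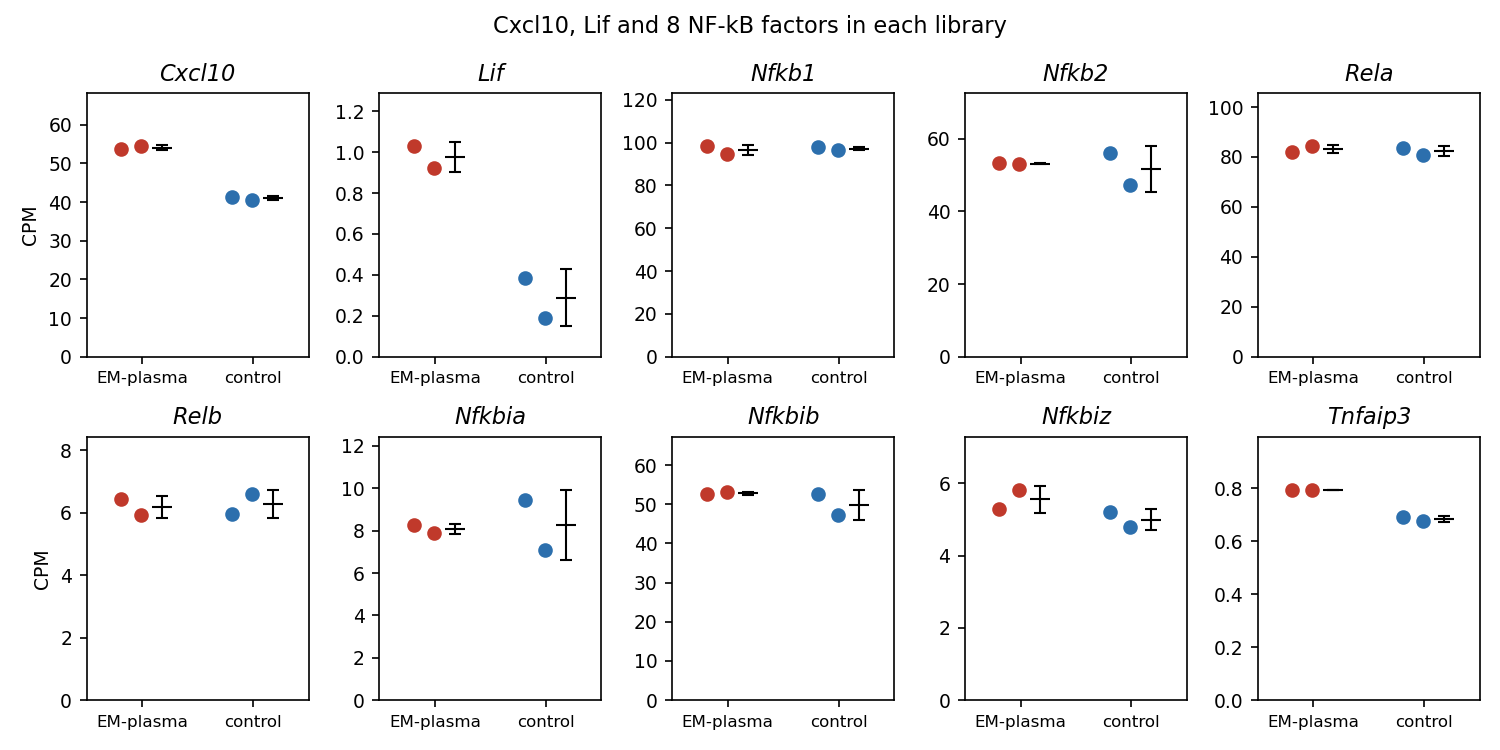
CPM of the 10 transcripts in each library, with a separate linear axis from 0 for every gene. Red points are EM-plasma libraries, blue points control libraries, and the black marks beside them show mean ± SD (n = 2). Cxcl10 and Lif stand apart between groups, while the control values of Nfkb2 and Nfkbia lie on either side of both EM-plasma values.

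The 4 subunit transcripts differed little between groups. Nfkb1 (ENSMUSG00000028163, chromosome 3, 135584655 to 135691547), which encodes p105 and its product p50, stood at 98.3 and 94.8 CPM in EM-plasma libraries, against 97.8 and 96.6 CPM in control libraries (log2 fold change -0.01, SE 0.052). Rela (ENSMUSG00000024927, chromosome 19, 5637483 to 5648130), the p65 subunit that carries a transactivation domain, stood at 82.1 and 84.3 CPM in EM-plasma libraries, against 83.6 and 80.8 CPM in control libraries (log2 fold change 0.02, SE 0.054). For both genes the groups overlapped, and the means differed by less than the SD of a group. These are the transcripts of the p50-p65 dimer of the canonical pathway.

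Nfkb2 and Relb encode the p100/p52 and RelB proteins of the alternative pathway. Nfkb2 (ENSMUSG00000025225, chromosome 19, 46304320 to 46312385) stood at 53.2 and 53.1 CPM in EM-plasma libraries, against 56.1 and 47.3 CPM in control libraries (log2 fold change 0.04, SE 0.068). Relb (ENSMUSG00000002983, chromosome 7, 19606217 to 19629438) was less abundant, with 6.43 and 5.93 CPM in EM-plasma libraries, against 5.95 and 6.60 CPM in control libraries (log2 fold change -0.02, SE 0.13). The 2 control values of Nfkb2 lay on either side of both EM-plasma values, and its log2 fold change was 0.17 without control 1 and -0.08 without control 2. Relb libraries of the groups were interleaved.

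Among the inhibitors, Nfkbia (IkB-alpha) and Nfkbib (IkB-beta) retain NF-kB in the cytoplasm. Nfkbia (ENSMUSG00000021025, chromosome 12, 55489410 to 55492647) stood at 8.26 and 7.91 CPM in EM-plasma libraries, against 9.45 and 7.09 CPM in control libraries (log2 fold change -0.03, SE 0.13). Its control libraries differed from each other by more than the group means did, and the log2 fold change was 0.19 without control 1 and -0.22 without control 2. Nfkbib (ENSMUSG00000030595, chromosome 7, 28758251 to 28767512) stood at 52.5 and 53.0 CPM in EM-plasma libraries, against 52.6 and 47.2 CPM in control libraries (log2 fold change 0.08, SE 0.063). Both EM-plasma values of Nfkbib fell close to control 1, and the control pair was the wider one.

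Nfkbiz and Tnfaip3 were slightly higher in EM-plasma libraries, each by less than 2 standard errors. Nfkbiz (ENSMUSG00000035356, chromosome 16, 55811375 to 55838899), a nuclear IkB protein that assists transcription of selected targets, stood at 5.30 and 5.82 CPM in EM-plasma libraries, against 5.20 and 4.79 CPM in control libraries (log2 fold change 0.15, SE 0.14). Tnfaip3 (ENSMUSG00000019850, chromosome 10, 19000910 to 19015657), the ubiquitin-editing enzyme A20 that ends signalling from TNF and Toll-like receptors, had 37 and 37 reads in EM-plasma libraries, against 34 and 32 in control libraries (log2 fold change 0.22, SE 0.35). The groups did not overlap for either gene. Together with Cxcl10 and Lif this made 4 of the 10 transcripts with EM-plasma above control and 0 below, where 49.1% of tested genes had groups that did not overlap, 24.3% above and 24.8% below. The 8 NF-kB factors had a median log2 fold change of 0.03, from -0.03 to 0.22, and the median of all tested genes was -0.0027.

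Per length, as TPM (reads per kilobase of all annotated exons of a gene, scaled to the same total in each library), the transcripts spanned a wide range. That length need not be the length of the transcripts present. For Cxcl10 it was 2252 bases, the whole gene, and for Nfkb1 12061 bases. Nfkb1 had more CPM than Rela in control libraries (97.2 against 82.2), so the order below depends on the length used. Rela was the most abundant, at 109 ± 1.36 TPM in EM-plasma libraries and 108 ± 2.57 TPM in control libraries, followed by Nfkbib, at 98.3 ± 0.00283 TPM in EM-plasma and 93.0 ± 7.07 TPM in control libraries. Cxcl10 came next, at 97.0 ± 0.371 TPM in EM-plasma and 73.5 ± 0.893 TPM in control libraries, and 24.6% of tested genes had a higher TPM in controls. By this measure the chemokine transcript stood between those of the subunits Rela and Nfkb2 in both groups. Nfkb2, Nfkb1 and Nfkbia followed at 46.9, 32.4 and 20.3 TPM in EM-plasma libraries, against 45.5, 32.6 and 20.7 TPM in control libraries. Relb and Nfkbiz stood at 6.43 and 4.48 TPM in EM-plasma libraries, against 6.53 and 4.02 TPM in control libraries.

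Lif and Tnfaip3 closed the order. Lif was at 0.907 ± 0.0754 TPM in EM-plasma and 0.267 ± 0.129 TPM in control libraries, and Tnfaip3 at 0.444 ± 0.00241 TPM in EM-plasma and 0.382 ± 0.00600 TPM in control libraries. In controls these 2 neighbours did not differ beyond the spread of Lif. In EM-plasma libraries Lif stood above Tnfaip3, which was the 1 change of place among the 10.

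**Figure D2:**
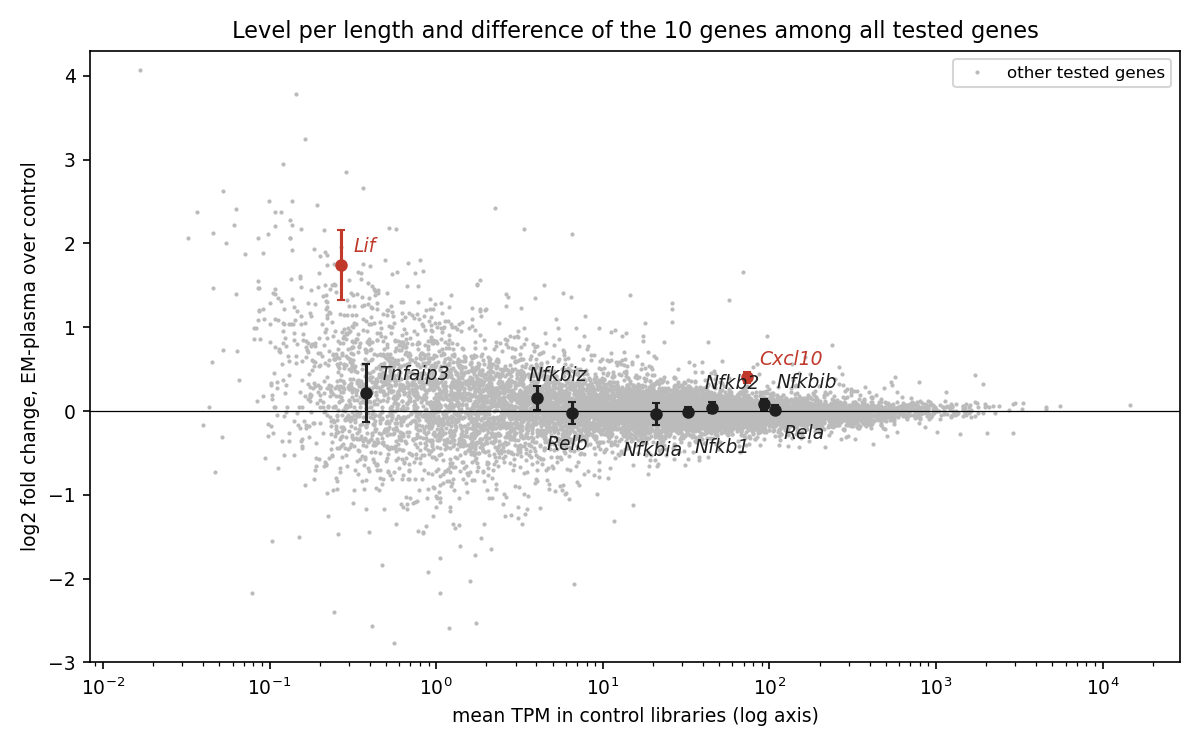
Mean TPM in control libraries (log axis) against the log2 fold change of EM-plasma over control for all tested genes (grey) and the 10 transcripts (black, with Cxcl10 and Lif in red; bars are ± 1 SE). Lif, at 0.267 TPM, lies in the sparse region of wide scatter, and Cxcl10, at 73.5 TPM, lies near the upper edge of genes at its level, while the 8 NF-kB factors stay between -0.03 and 0.22.

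Some of these genes share exons with a neighbour on the opposite strand. Cxcl10 lies inside Art3, a gene of the ADP-ribosyltransferase family, with 133 exon bases in common. Art3 had 4030 and 3950 reads in EM-plasma libraries, against 3938 and 3868 in control libraries. Nfkbib shares 42 exon bases with Sirt2, a deacetylase gene, which had 5300 and 5095 reads in EM-plasma libraries, against 5495 and 4996 in control libraries. The kit kept strand, but the strand setting of the counting is not given in the sources used here, so reads in the shared bases cannot be assigned with certainty. Nfkb2 also shares 531 exon bases with AC114539.1, a noncoding gene that was not analysed here, and 299 with Psd, which had at most 50 reads in a library. Nfkbib shares 314 with Ccer2, which had at most 3.

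The libraries held the markers of their label and few of others. All 7 melanocyte lineage markers were tested, with 0 past the threshold in edgeR (2 before adjustment) and a summed level from 11210 to 11330 CPM in EM-plasma and from 10960 to 11010 CPM in control libraries. The 11 myeloid markers summed to between 1.79 and 2.02 CPM in EM-plasma and between 1.34 and 1.86 CPM in control libraries, with Ptprc, Adgre1 and Itgam at 0 reads in all 4 libraries. The 10 lymphocyte markers reached at most 0.385 CPM in sum, in control 1, with Cd4 and Cd8a at 0 reads. The 10 fibroblast and endothelial markers summed to between 29.4 and 30.7 CPM in EM-plasma and between 27.6 and 29.4 CPM in control libraries, led by Col1a2, with Cdh5 and Kdr at 0 reads. Library totals ran from 46295133 to 49367932 reads. Replicates of both groups differed by more than sampling noise, the control pair more so (chi-square per degree of freedom 2.94 for the EM-plasma pair and 8.12 for the control pair). Pairs across the groups ran from 9.3 (control 1 with EM-plasma 1) to 15.8 (control 2 with EM-plasma 1). The controls thus differed from each other almost as much as control 1 did from EM-plasma 1.

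Beyond the 10 transcripts, no core gene of the NF-kB machinery passed the test. Of 45 other core genes (the remaining subunit Rel, IkB proteins, IkB kinases, TRAF adaptors, ubiquitin ligases and deubiquitinases) 42 were tested, and edgeR called 0 of them and DESeq2 0. Before adjustment 2 of the 42 had an edgeR p below 0.05, against 2671 of all 13664 tested genes. After adjustment edgeR called 6.21% of all tested genes. The median log2 fold change of the list was 0.01, against -0.0027 for all tested genes. The most abundant member was Tax1bp1, an adaptor that works with A20, at 316 ± 9.97 CPM in EM-plasma and 332 ± 19.5 CPM in control libraries (log2 fold change -0.07, SE 0.046, adjusted p = 0.443). The IkB kinase genes Chuk, Ikbkb and Ikbkg had log2 fold changes of -0.02, -0.06 and 0.02. The 2 with the smallest p were Map3k14, the NIK kinase of the alternative pathway, at 6.73 ± 0.205 CPM in EM-plasma and 5.17 ± 0.477 CPM in control libraries (adjusted p = 0.0920), and Irak2, an interleukin-1 receptor-associated kinase, at 17.1 ± 0.543 CPM in EM-plasma and 14.5 ± 0.167 CPM in control libraries (adjusted p = 0.107).

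Upstream, 16 of 32 receptor and ligand genes were tested and 1 passed, or 6.25% against 6.21% of all tested genes. Tnfrsf12a, the receptor of the cytokine TWEAK, rose 1.22-fold, to 42.2 ± 2.35 CPM in EM-plasma libraries, against 34.4 ± 0.338 CPM in control libraries (adjusted p = 0.00575). That call ended without EM-plasma 1, control 1 or control 2, with adjusted p = 0.357, 0.0677 and 0.173. Of the 16 that were not tested, 7 had 0 reads in all 4 libraries, among them the ligand genes Il1a and Il1b and the receptor gene Cd40, and Tnf had 2 and 0 reads in EM-plasma libraries, against 0 and 1 in control libraries.

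Of 64 genes listed as NF-kB targets, 33 were tested, and 8 rose and 3 fell. These were 33.3% of the 33, against 6.21% of all tested genes. The list was chosen with earlier results of these data known, so nothing is read from that share. The median log2 fold change of the 33 was 0.05. Trim47, a TRIM-family gene, rose 1.92-fold, to 14.6 ± 0.608 CPM in EM-plasma libraries, against 7.59 ± 0.529 CPM in control libraries (adjusted p = 3.79e-07), and passed whichever library was left out. Bcl2l1 and Bcl2, which protect from apoptosis, and the cyclin gene Ccnd1 rose by log2 fold changes of 0.28, 0.26 and 0.20 (adjusted p = 0.00557, 0.0161 and 0.00652). B2m, the light chain of MHC class I, fell, with a log2 fold change of -0.26 (adjusted p = 0.00189). The calls of Bcl2l1, Ccnd1 and B2m ended without either EM-plasma library or without control 2 (adjusted p from 0.0622 to 0.345), and that of Bcl2 whichever library was left out (0.0750 to 0.276). Junb, Myc and Zfp36 also rose, and Irf1 and Sdc4 fell. These 5 were named after their values were seen. The calls of Junb, Myc, Irf1 and Sdc4 were lost in each fit without a library (adjusted p between 0.0524 and 0.641), and that of Zfp36 without EM-plasma 1 or control 2 (0.226 and 0.273). Genes past the threshold numbered 2 without EM-plasma 1, 3 without EM-plasma 2, 8 without control 1 and 1 without control 2.

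Of the 31 target genes that were not tested, 14 had 0 reads in all 4 libraries, among them the cytokine gene Il6, the chemokine genes Cxcl2, Ccl7 and Ccl20 and the adhesion gene Vcam1. The chemokine genes Cxcl1 and Ccl2 had 6 and 8 and then 1 and 0 reads in EM-plasma libraries, against 6 and 4 and then 0 and 0 in control libraries. Icam1, an adhesion gene, had 1 and 4 reads in EM-plasma libraries, against 4 and 1 in control libraries. Other chemokine and cytokine genes of the list were read: Ccl5 had 114 and 102 reads in EM-plasma libraries, against 145 and 132 in control libraries (adjusted p = 0.430), and Csf1 had 1364 and 1405 in EM-plasma libraries, against 1448 and 1333 in control libraries (adjusted p = 0.772). Cx3cl1 had 125 and 108 reads in EM-plasma libraries, against 69 and 86 in control libraries (adjusted p = 0.107). The highest count among the 31 was 8 reads in a library, so differences in those 31 genes were not detectable at these counts.

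**Figure D3:**
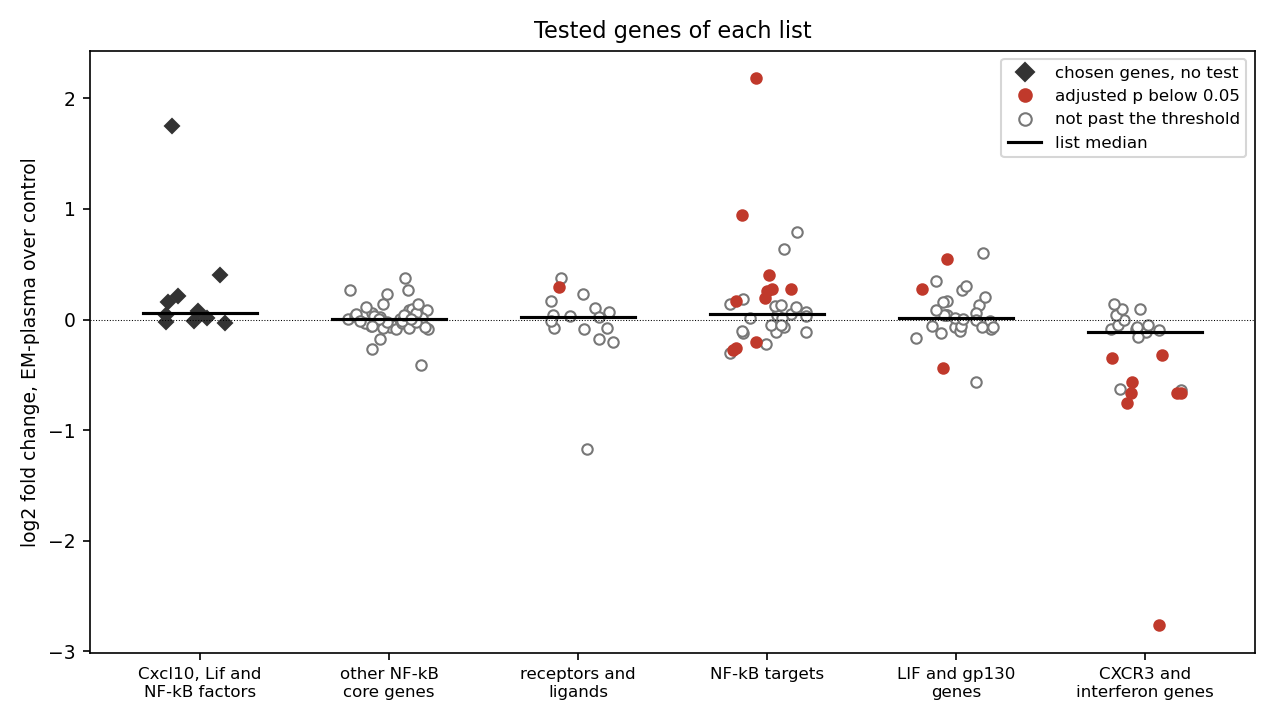
Log2 fold changes of EM-plasma over control for the tested genes of each list, with the list median as a bar. Filled circles passed an adjusted p of 0.05 and open circles did not; the 10 chosen transcripts are diamonds and carry no test. Core genes hold 0 filled circles, and the 8 filled circles of the CXCR3 and interferon list all lie below 0.

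For Lif, the genes of its receptor pathway were examined. Of 39 genes of LIF and gp130 signalling 32 were tested, and 2 rose and 1 fell, or 9.38% against 6.21% of all tested genes. The median difference of the 32 was 0.01 on the log2 scale. Lifr, the LIF receptor, stood at 4.70 ± 0.511 CPM in EM-plasma and 4.44 ± 0.763 CPM in control libraries (adjusted p = 0.831), and Il6st, which encodes gp130, at 108 ± 1.13 CPM in EM-plasma and 112 ± 3.80 CPM in control libraries (adjusted p = 0.615). Both receptor chains were thus read in these cells. Socs3, a feedback target of STAT3, stood at 5.12 ± 0.355 CPM in EM-plasma and 4.58 ± 0.156 CPM in control libraries (log2 fold change 0.16, SE 0.15, adjusted p = 0.599). Pias3, an inhibitor of STAT3, rose 1.21-fold (adjusted p = 0.0202). The call of Pias3 ended without either EM-plasma library or control 2 (adjusted p from 0.175 to 0.345). Genes past the threshold numbered 1 without EM-plasma 1 and 0 without control 2.

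Cxcl10 differed in direction from the interferon-related genes that were past the threshold. Of 29 matched genes of the CXCR3 chemokines and the interferon pathway 23 were tested, and 8 fell and 0 rose. The median difference of the 23 was -0.11 on the log2 scale. The 8 were 34.8% of the 23, against 6.21% of all tested genes. This list too was chosen with earlier results known, so nothing is read from that share. Ddx58, the RNA sensor RIG-I, had 21.0 and 21.0 CPM in EM-plasma libraries, against 31.5 and 34.9 CPM in control libraries (log2 fold change -0.66, adjusted p = 5.07e-07). Ifih1, the sensor MDA5, and the antiviral genes Ifit1, Ifit3 and Rsad2 fell as well, with log2 fold changes of -0.66, -0.75, -0.66 and -0.32 (adjusted p = 0.000406, 3.80e-05, 0.000729 and 0.0109). Irf7, an interferon regulatory factor, had 4 and 3 reads in EM-plasma libraries, against 37 and 14 in control libraries (adjusted p = 0.00953). In each of these genes both EM-plasma libraries lay below both control libraries, while in Cxcl10 both lay above. These genes and Cxcl10 were picked on that same difference, so the contrast is a description only. Of the 23 tested genes, 14 lay wholly below the controls, 2 wholly above and 7 overlapped. Among all tested genes 24.8% lay below and 24.3% above. The log2 fold change was above 0 for 4 of the 23. Irf9 and Isg15 were the other 2 past the threshold, both lower, and were named after their values were seen.

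The sister chemokines of Cxcl10 were hardly read. Cxcl9 had 0 and 0 reads in EM-plasma libraries, against 2 and 2 in control libraries, and Cxcl11 had 0 and 2 reads in EM-plasma libraries, against 0 and 2 in control libraries. Their receptor gene Cxcr3 had 3 and 0 reads in EM-plasma libraries, against 2 and 2 in control libraries, and Ifnb1 had 0 reads in all 4. In the interferon list genes past the threshold numbered 5 without either EM-plasma library, 4 without control 1 and 1, Ddx58, without control 2. Without control 2 the adjusted p was 0.0860 for Ifit1, 0.105 for Ifih1 and 0.128 for Ifit3. The calls of Irf7 and Rsad2 were lost in each fit without a library (adjusted p between 0.0527 and 0.269), and those of Irf9 and Isg15 without either control (0.137 to 0.208), the first also without EM-plasma 2 (0.440) and the second also without EM-plasma 1 (0.351).

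**Figure D4:**
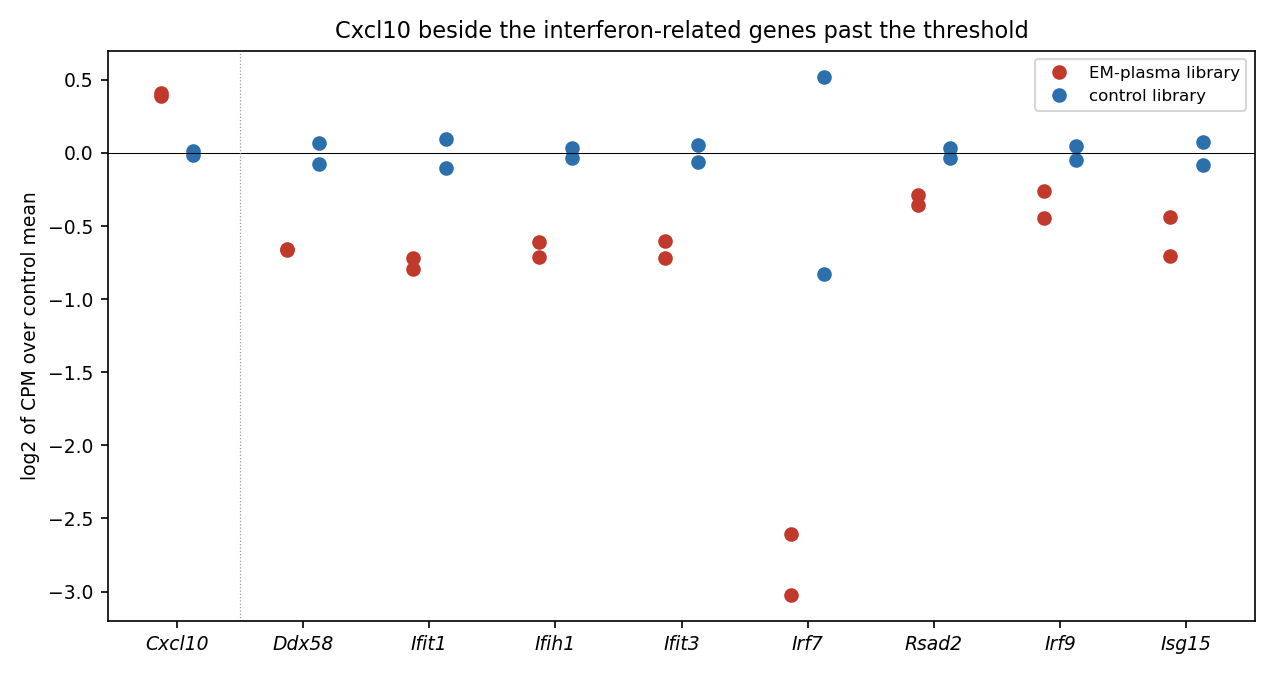
CPM of each library relative to the control mean, on a log2 scale, for Cxcl10 (left of the dotted line) and the 8 interferon-related genes that passed an adjusted p of 0.05. Red points are EM-plasma libraries and blue points control libraries. Both EM-plasma libraries lie above the controls for Cxcl10 and below them for the other 8 genes, with Irf7 resting on 4 and 3 reads in EM-plasma libraries.

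Genes with the nearest pattern were found by the distance between log2 CPM values over the 4 libraries, each centred on the gene's own mean, among 10703 named genes of at least 1 CPM. For Cxcl10 these were Thbs1, the matricellular protein thrombospondin 1 (distance 0.0145), Sparc, another matricellular protein (0.0171), and Aldh1l2, a mitochondrial folate enzyme (0.0280). Their log2 fold changes were 0.41, 0.41 and 0.39. For Lif they were Syn2, Cyp1a1 and Id3, at distances of 0.326, 0.341 and 0.373. Lif itself was below 1 CPM (0.977 in EM-plasma and 0.288 in control libraries), so genes at its level were not among the candidates. Its distances are therefore not comparable with those of Cxcl10. With 4 libraries the distance mostly reflects the difference between groups.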

How the data were processed

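Poly(A) RNA of B16 cells was sequenced in 4 libraries. The authors deposited a table of raw counts, 1 row per Ensembl gene and 1 column per library. The submitters' processing notes name GRCm38 as build and TopHat2 2.1.1, HTSeq and edgeR among the tools, without roles; strand setting and annotation release were not found in the labels. A scaled signal per library was deposited too. It equalled each count times 1 constant per library and served only to check the columns. GENCODE M21 on GRCm38 gave symbols, positions and exon lengths (53360 of 53465 rows matched). Rows with no symbol held at most 0.0064% of the reads of a library.

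Low genes were removed with filterByExpr (edgeR 4.0.16 under R 4.3.3). Libraries were scaled by TMM, and the quasi-likelihood F test took group as its one term, two-sided, with Benjamini-Hochberg adjustment over 13664 genes. The biological coefficient of variation was 4%. An SE is the size of the log2 fold change over the square root of its F value. Alternatives were DESeq2 1.42.0, RLE factors, 2 other filters, a replicate block and leaving out each library. The fit was tested on simulated data. The 10 transcripts and all lists were chosen with earlier results of these data known. Up to 6 called genes per list were named, lowest adjusted p first, or the most abundant where none was called, and others for their role; a few list genes are not reported here. Errors reflect counting and the spread between these 4 libraries.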

Additional observations from a re-analysis of the deposited data

How the results depend on the processing

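Among all tested genes, 849 passed the threshold; 545 did with DESeq2, 14 with no low-count filter, 1683 with the replicate block and between 71 and 547 when 1 library was left out. With no low-count filter 0 genes of the receptor, target, gp130 and interferon lists and 0 of the 10 transcripts passed, and when 1 library was left out the numbers ran from 0 to 0 for other core genes, 0 to 1 for receptors, 1 to 8 for targets, 0 to 3 for gp130 genes, 1 to 5 for interferon genes and 0 to 1 for the 10 transcripts. DESeq2 called 5 interferon genes and 1 of the 10 transcripts (Cxcl10). With at least 1 CPM required in 2 libraries, 2 receptor genes and 1 of the 10 transcripts passed, as Lif was then not tested. With the replicate block 2 core and 2 receptor genes passed; the labels do not say that equal numbers share a culture, and deviations of equally numbered libraries correlated weakly (r = 0.039 across genes, which are not replicates). The cause of these shifts was not tested. Of the 23 list genes past the threshold, 16 passed with DESeq2, and fewer than the 23 passed whenever 1 library was left out. In these fits 0 changed direction. The groups did not overlap for any of the 23, so leaving out a library could hardly reverse a direction, and nothing is read from that. The log2 fold changes of Cxcl10 and Lif kept their direction in every alternative that tested them. Their groups did not overlap and both genes were chosen on this contrast, so nothing is read from that. Lif, Tnfaip3 and the 31 targets that were not tested had few reads or none, which limits what can be read from them.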
